A study of Mus musculus with 12 samples.

Results

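The interferon response and MHC class I antigen presentation were followed through 9 genes in primordial germ cells (PGCs) of the mouse, from which the gametes descend: Irgm1, Irgm2, Igtp, Irf1, Isg15, Ifit1, B2m, H2-K1 and H2-D1. These 9 genes were taken by symbol from 22552 rows in each of 3 tables comparing embryonic stages, and 6 of them from 16394 rows of a table comparing Tet1-KO with wild-type (WT) cells. Irgm1 was chosen by its measured ratios and q-values at E13.5f, where the authors' tables call it lower than at E11.5, and at E13.5m, where they call it higher. Its values in those comparisons describe the choice and are given without a test. The other members were added as genes of the same response.

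Interferons are secreted proteins that bind paired receptor chains and signal through JAK kinases and STAT transcription factors. Type I interferons act mainly through the interferon-stimulated response element (ISRE) in target promoters, and interferon gamma through the gamma-activated site (GAS). Target genes include the immunity-related GTPases, which act on pathogen vacuoles and in autophagy, antiviral proteins such as ISG15 and IFIT1, and MHC class I, which shows peptides to cytotoxic T cells. In PGCs, the interferon-inducible membrane protein IFITM3 (fragilis) is a classical marker.

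Messenger RNA came from PGCs of C57BL/6 embryos in 12 libraries, made from low-input amplified cDNA. The wild-type groups were E9.5 (embryonic day 9.5, 2 libraries), E11.5 (2 libraries), E13.5m (day 13.5, 3 libraries) and WT (day 13.5, 3 libraries with no sex label), and Tet1 -/- cells of day 13.5 formed the group Tet1-KO (2 libraries). No library analysed here is titled E13.5f, and that group is used as the table names it. Inputs were 500 to 2000 cells for WT and Tet1-KO and 400 to 5000 cells for the other groups. Tet1 encodes an enzyme that oxidises 5-methylcytosine, and the animals and the allele are not described further in the labels. The authors deposited a single pooled FPKM value per group (fragments per kilobase of transcript and per unit of mapped fragments). Levels therefore carry no spread over libraries, and depth is unknown. Errors are given for log2 ratios only, as the standard error (SE) implied by the authors' test. As the labels name no separate embryos or litters, p-values cover library-to-library variation that could be technical. A gene is said to rise or fall where the authors' q-value or FDR is below 0.05, and the values of such a call are on the scale of its own table.

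The germ cell identity of the groups was checked with 9 germ cell markers. All 9, among them Pou5f1, Dppa3 and Ddx4, were at 1 FPKM or more in every group, with a summed level between 2357 and 5204 FPKM. Of 12 macrophage and leukocyte markers, at most 2 reached 1 FPKM in a group (6 of the 12 have a row in the Tet1 table), their sum stayed between 1.17 and 7.34 FPKM, and Ptprc, the pan-leukocyte marker CD45, was listed at 0 in the 4 stage groups. Gonad soma markers summed to 3.11 FPKM at E11.5, 7.49 at E13.5f and 27.8 at E13.5m, where Cyp17a1, a steroid hormone enzyme, stood at 9.76 FPKM, and to 7.55 in WT and 12.8 in Tet1-KO. Erythroid markers summed to 1887 FPKM at E9.5, against 25.4 at E11.5, 3.29 at E13.5f and 38.8 at E13.5m. The sum of 8 endothelium markers, 45.0 to 107 FPKM, came mainly from Pecam1, which germ cells also express. In these bulk samples, fewer cells of a type and less RNA per cell cannot be told apart.

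The stretches just before the gene starts of 6 members are printed here because the members differ in the interferon elements they carry. All 9 members matched a RefSeq promoter by symbol (build GRCm38.p6), and the 250 bases before each start were searched on both strands for 4 motifs. These were an ISRE core (GAAA, any 2 bases, GAAA), a relaxed ISRE (AANNGAAAC, which can overlap the core), a GAS (TTCNNNGAA) and an NF-kappaB site (GGG, any 2 bases, TTCCC). Capitals mark these matches.
Irgm1, chr11:48871421-48871510, minus strand: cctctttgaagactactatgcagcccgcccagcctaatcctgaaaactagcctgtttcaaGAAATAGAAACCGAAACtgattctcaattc
Igtp, chr11:58199466-58199555, plus strand: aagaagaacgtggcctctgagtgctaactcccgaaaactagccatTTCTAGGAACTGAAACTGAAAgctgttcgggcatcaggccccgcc
Irf1, chr11:53769884-53769963, plus strand: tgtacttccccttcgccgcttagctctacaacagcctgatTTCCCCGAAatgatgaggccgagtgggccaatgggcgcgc
B2m, chr2:122147527-122147636, plus strand: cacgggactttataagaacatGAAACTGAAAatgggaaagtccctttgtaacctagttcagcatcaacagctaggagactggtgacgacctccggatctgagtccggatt
H2-K1, chr17:34000398-34000507, minus strand: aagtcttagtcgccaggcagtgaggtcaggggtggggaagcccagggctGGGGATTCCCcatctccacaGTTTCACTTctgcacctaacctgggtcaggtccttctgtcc
H2-D1, chr17:35262874-35262983, plus strand: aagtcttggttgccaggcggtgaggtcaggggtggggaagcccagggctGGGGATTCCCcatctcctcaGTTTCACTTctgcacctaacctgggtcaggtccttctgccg

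The ISRE core was found in 6 of the 9 members (Irgm1, Irgm2, Igtp, Isg15, Ifit1 and B2m) and in 3.46% of 27025 genes. A gene counts where any of its promoters matches. The Irgm1 stretch holds 2 overlapping cores within 30 bases of the gene start, with no GAS match in the 250 bases, whereas Irgm2 and Igtp hold an ISRE core and a GAS side by side. A GAS was found in 3 members, Irgm2, Igtp and Irf1, and in 8.13% of all genes. The H2-K1 and H2-D1 windows were identical at 104 of 110 bases. Both carry an NF-kappaB match, which 1.75% of all genes hold, next to a relaxed ISRE, which 5.70% hold. A match describes letters in a window and is not evidence of binding.

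Of the 7 members with a completed test, 3 were called at E13.5f (Irgm1 lower, H2-K1 and H2-D1 higher) and 1 at E13.5m (Irgm1, higher). None was called from E9.5 to E11.5, and of 6 in Tet1-KO 2 were called, H2-K1 and H2-D1, both lower. Over all tested genes, 12.0% were called at E13.5f (9.34% higher and 2.68% lower), 4.88% at E13.5m (2.94% higher and 1.94% lower), 5.63% from E9.5 to E11.5 (3.71% higher and 1.92% lower) and 6.16% in Tet1-KO (0.677% higher and 5.48% lower). From E9.5 to E11.5 the unadjusted p in the authors' deposited table was under 0.05 for 2559 genes, with 2 members among them, H2-K1 (p 0.0272) and Igtp (p 0.0389). The Irgm1 calls at E13.5f and E13.5m are those that chose it.

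Irgm1, which encodes an immunity-related GTPase that regulates the other members of its family (chromosome 11, 48678751 to 48684848, build mm9), was chosen for the contrast described here. On a scale set by the shared E11.5 columns, it stood at 5.44 FPKM at E9.5, 6.61 at E11.5, 0.656 at E13.5f and 22.6 at E13.5m. E13.5m was therefore highest and E13.5f lowest, with E9.5 and E11.5 close together between them. The log2 ratio to E11.5 was -3.33 ± 0.84 (SE) at E13.5f and 1.78 ± 0.54 (SE) at E13.5m. The q-values in the authors' deposited tables were 0.00221 and 0.0288, and 0.05 was the threshold of the choice. The 2 ratios are 5.11 ± 1.0 (SE) apart on the log2 scale, with the error of E11.5 counted in both. If E13.5f is made of the WT libraries, with their input of 500 to 2000 cells, the group and the library set cannot be told apart in this contrast.

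Between E9.5 and E11.5 the Irgm1 ratio was 0.28 ± 0.71 (SE), with a q-value of 0.876 in the authors' deposited table, so these neighbouring levels did not differ beyond the error of the test. In the Tet1 comparison Irgm1 stood at 0.679 FPKM in WT and 1.04 with Tet1 deleted, a log2 ratio of 0.61 ± 1.0 (SE), and was not called (authors' FDR 0.785). Its WT level lay beside its E13.5f level of 0.656, and the WT and E13.5f columns may hold the same libraries. Both WT and Tet1-KO were thus below the 22.6 FPKM of E13.5m, in tables that were scaled separately.

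**Figure D1:**
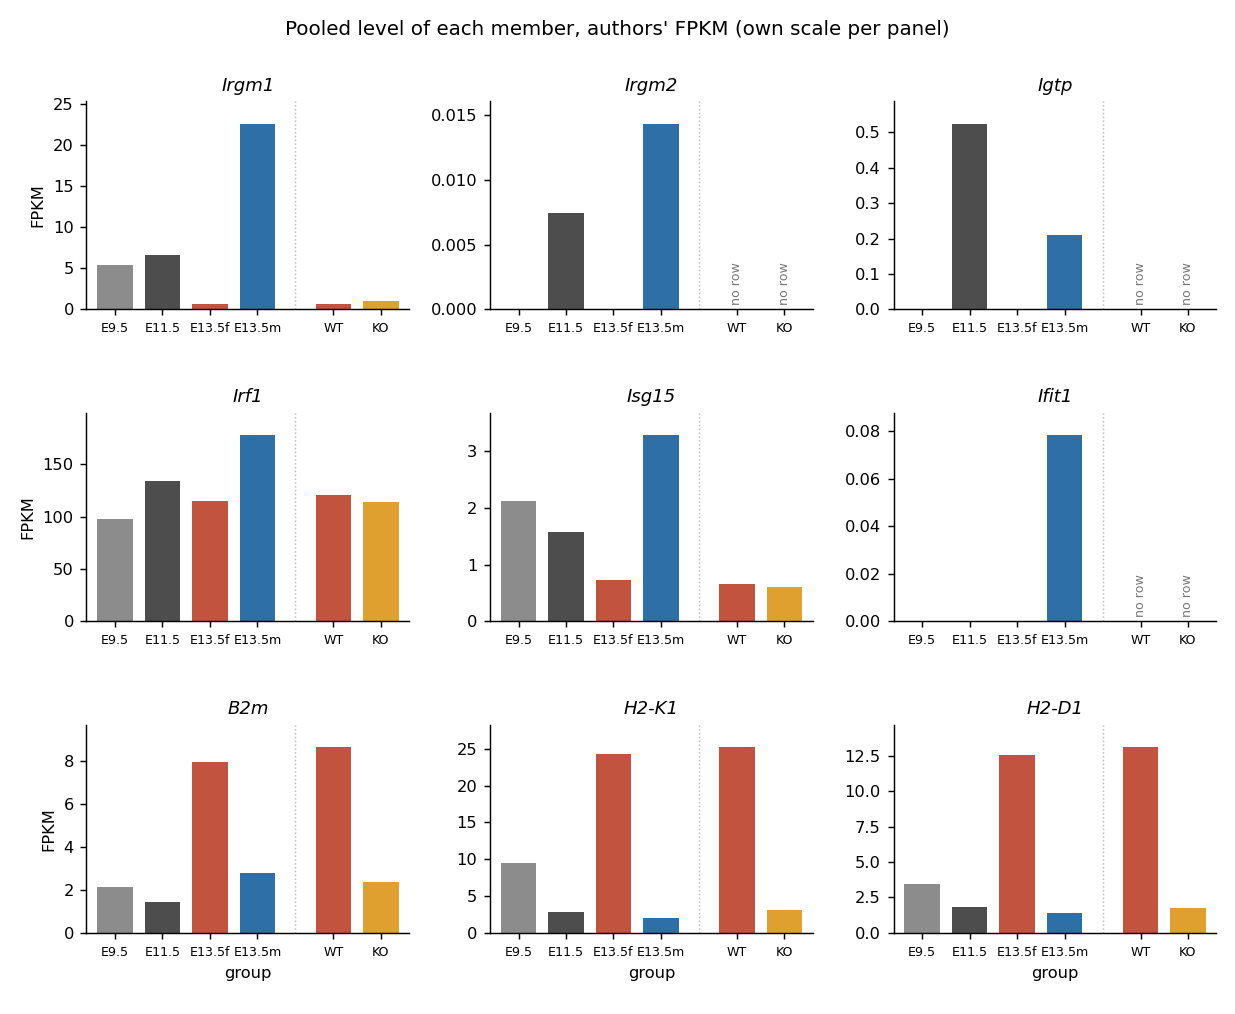
Pooled level of each of the 9 members in FPKM (vertical axis, linear from 0, own scale per panel) by group; E9.5 to E13.5m are on the scale of the E13.5f table, and WT and Tet1-KO (KO) to the right of the dotted line come from their own table. Irgm1 is highest at E13.5m (22.6), whereas H2-K1 (24.3), H2-D1 (12.6) and B2m (7.94) are highest at E13.5f among the stage groups and lower in Tet1-KO than in WT.

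The closest relatives of Irgm1 were near the floor. Irgm2, a GTPase of the same regulatory subfamily (chromosome 11, 58028479 to 58036285), was listed at 0 at E9.5 and E13.5f and at 0.0144 FPKM or less elsewhere, and the authors ran no test on it. Igtp, also known as Irgm3 (chromosome 11, 58013058 to 58021094), was listed at 0 at E9.5 and E13.5f, at 0.525 FPKM at E11.5 and at 0.210 at E13.5m. None of its 3 tests was called; the smallest q-value was 0.163 in the authors' deposited tables. Irgm2 and Igtp were not analysed in the Tet1 comparison.

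Other GTPases of the IRG and GBP families, which attack vacuoles that carry pathogens, were low in all groups. Of 24 genes in this list 23 had a row in the stage tables, and Irgm1 was the only one to exceed 5 FPKM. Gbp4 was highest of the rest, at 3.05 FPKM at E9.5 and 0.225 at E13.5f, and Gbp3 stood at 2.21 and 0.117 FPKM in the same groups. Gbp7 reached 1.53 FPKM at E9.5. Tgtp1 and Tgtp2, near-identical copies whose reads cannot be told apart with certainty, both stood at 1.45 FPKM at E13.5m and at 0.223 or less in the other stage groups, without a completed test. Irgq stayed between 0.766 and 1.06 FPKM over the stage groups. Among tested list members Irgm1 was the only call in any comparison: 1 of 6 at E13.5f, 1 of 7 at E13.5m, 0 of 8 from E9.5 to E11.5 and 0 of 9 in Tet1-KO. Over all tested genes the shares called were 12.0%, 4.88%, 5.63% and 6.16% in the same order. Counts this small cannot set the list apart from those shares. The 2 calls of Irgm1 are the ones it was chosen on. The median change of the tested GTPases in log2(FPKM + 1) was -0.23 from E9.5 to E11.5, -0.55 at E13.5f, 0.11 at E13.5m and 0.08 in Tet1-KO, against 0.29, 0.22, 0.05 and -0.21 over all tested genes.

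Messenger RNA for interferons themselves was not seen at any appreciable level. Of 19 ligand genes, including Ifng, Ifnb1 and the Ifna cluster, 18 were listed at 0 at both E9.5 and E11.5, 17 at both E11.5 and E13.5f and 16 at both E11.5 and E13.5m. The receptor chains were present. Ifngr1, the ligand-binding chain for interferon gamma, stood at 5.31, 7.31, 30.6 and 9.10 FPKM at E9.5, E11.5, E13.5f and E13.5m. Its rise at E13.5f was called, with a log2 ratio of 2.06 ± 0.54 (SE) and a q-value of 0.00375 in the authors' deposited table. Ifngr2, the signalling chain, ran the other way, from 33.0 FPKM at E9.5 to 5.13 at E11.5, 1.53 at E13.5f and 1.59 at E13.5m. It fell between E9.5 and E11.5 by 2.68 ± 0.59 (SE) on the log2 scale (authors' q 0.000542). E13.5f therefore had the most Ifngr1 and E9.5 the most Ifngr2.

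For type I interferon the receptor genes Ifnar1 and Ifnar2 stayed at 4.70 FPKM or less in the stage groups and had no call. Stat2, a transcription factor of the type I pathway, stood at 0.275 FPKM at E9.5 and at 2.11 to 2.21 FPKM in the later stage groups. Over all tested genes 5.63% were called from E9.5 to E11.5, 12.0% at E13.5f, 4.88% at E13.5m and 6.16% in Tet1-KO. Of the 18 receptor and JAK-STAT genes, 16 were tested between E9.5 and E11.5, of which 2 rose and 1 fell. The rises were Ptpn6, a phosphatase that dampens JAK signalling, from 110 to 203 FPKM, and Socs3, a feedback inhibitor, from 0.0381 to 0.997 FPKM, and neither remained called relative to the median ratio of all genes (adjusted p 0.107 and 0.0728). At E13.5f 1 of 14 rose (Ifngr1) and at E13.5m 0 of 14 were called, and the Ptpn6 test was not completed in either. In Tet1-KO 1 of 17 fell, Ptpn6 from 171 to 98.1 FPKM, which was not called relative to the median (adjusted p 0.439). Ifngr2, at 1.57 FPKM in WT and 5.47 in Tet1-KO, was called relative to that median only, with a log2 ratio of 2.18 (adjusted p 0.0482).

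Irf1, a transcription factor of the interferon gamma response (chromosome 11, 53583516 to 53591876), was the most abundant member in FPKM in every group. It stood at 97.5 FPKM at E9.5, 134 at E11.5, 114 at E13.5f and 178 at E13.5m, and at 121 in WT and 114 in Tet1-KO. Its level exceeded that of 92.1% of tested genes at E11.5. No comparison called it: the log2 ratios were 0.46 ± 0.44 (SE) from E9.5 to E11.5, -0.23 ± 0.39 at E13.5f, 0.40 ± 0.41 at E13.5m and -0.08 ± 0.29 in Tet1-KO. None of these comparisons therefore separated its levels beyond the error of the test. Among the 11 genes of the interferon regulatory factor list, Irf3, which acts downstream of nucleic acid sensors, stood at 45.3 to 56.3 FPKM in the stage groups. Irf8, a factor of myeloid cells, rose from 2.01 FPKM at E11.5 to 6.82 at E13.5f (authors' q 0.0487). It was the 1 call of 9 tested, where 12.0% of all tested genes were called. Relative to the median Irf8 lost the call (adjusted p 0.0902). Macrophage and leukocyte markers summed to 7.34 FPKM at E11.5 and 3.70 at E13.5f. No other comparison called a member of the regulatory factor list, where 4.88% to 6.16% of all tested genes were called.

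**Figure D2:**
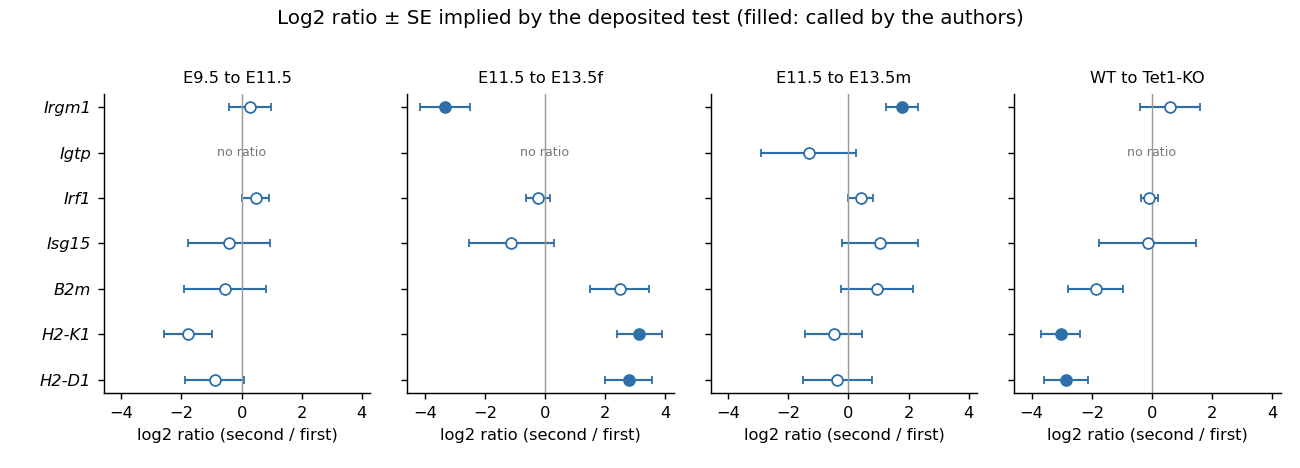
Log2 ratio of the second to the first group (horizontal axis) with its SE as a bar for the 7 members with a completed test, in the 4 comparisons; filled points were called by the authors. Irgm1 lies on opposite sides of 0 at E13.5f (-3.33) and E13.5m (1.78), as the choice of the gene fixed, and H2-K1 and H2-D1 lie above 0 at E13.5f and below 0 in Tet1-KO.

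Isg15, a ubiquitin-like protein attached to targets after interferon exposure (chromosome 4, 155573533 to 155574927), was low and uncalled throughout. Its levels were 2.12 FPKM at E9.5, 1.58 at E11.5, 0.726 at E13.5f and 3.28 at E13.5m. As for Irgm1, E13.5m was highest and E13.5f lowest, but the log2 ratios of -1.12 ± 1.42 (SE) at E13.5f and 1.06 ± 1.26 (SE) at E13.5m were within their errors. Ifit1, which binds foreign capped RNA (chromosome 19, 34715379 to 34724499), was listed at 0 in 3 stage groups and at 0.0782 FPKM at E13.5m, and had no completed test.

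The 40 antiviral interferon-stimulated genes fell into a few abundant genes and many near 0. Ifitm3, a membrane protein that restricts virus entry and a long-used PGC marker, stood at 766 FPKM at E9.5, 396 at E11.5, 177 at E13.5f and 180 at E13.5m. Ifitm2 stood at 297 to 523 FPKM and Ifitm1 at 205 to 364 FPKM over the stage groups, and Bst2, which tethers viruses to the cell surface, was at 36.5 to 89.5 FPKM. These 4 abundant genes had no call in any of the 4 comparisons, and the Ifitm1 test was not completed at E13.5f and E13.5m; Ifitm3 was called lower at E13.5f only relative to the median (log2 ratio -1.35, adjusted p 0.0379), as was Samhd1, a dNTP hydrolase gene (log2 ratio -1.15, adjusted p 0.0252). At E13.5f 24 of all 40 list rows were lower than at E11.5, 9 were higher and 7 were equal, where 28.2% of all rows were lower. The 20 tested members had a median change of -0.56 in log2(FPKM + 1), against 0.22 over all tested genes. In the same comparison macrophage and leukocyte markers had a median change of -0.66, with 9 of 12 rows lower, and erythroid markers -1.79, with 6 of 7 rows lower. Endothelium markers had a median of -1.75 over only 2 tested genes, with 3 rows higher, 3 lower and 2 equal. Gonad soma markers had a median of 0.32, with 7 of 12 rows higher and 4 lower. The part of these marker lists in the values of the antiviral list was not tested. Of the antiviral list only Rsad2, encoding the antiviral enzyme viperin, was called at E13.5f, from 1.01 FPKM to a listed 0. That is 1 of 20 tested, against 12.0% of all tested genes. At E13.5m 15 rows were lower and 20 higher, where 34.0% of all rows were lower and 40.9% higher. The median change there was 0.00 against 0.05, and 0 of 25 were called, as were 0 of 25 from E9.5 to E11.5. Over all tested genes 4.88% and 5.63% were called in these comparisons. In Tet1-KO 1 of 30 fell, against 5.48% of all tested genes. This was Samhd1, from 31.8 to 12.6 FPKM, a call lost relative to the median (adjusted p 0.0778).

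MHC class I members were highest at E13.5f, where Irgm1 was lowest. H2-K1, a classical class I heavy chain that presents peptides (chromosome 17, 34132957 to 34137278), stood at 9.49 FPKM at E9.5, 2.77 at E11.5, 24.3 at E13.5f and 1.97 at E13.5m. E13.5f stood above all other stage groups, and E11.5 and E13.5m were close together. H2-K1 rose 8.78-fold from E11.5 to E13.5f, a log2 ratio of 3.13 ± 0.74 (SE) with a q-value of 0.000903 in the authors' deposited table. H2-D1, the other classical heavy chain of this list (chromosome 17, 35400039 to 35462354), gave 3.43, 1.83, 12.6 and 1.42 FPKM in the same order of groups. It rose 6.85-fold at E13.5f, a log2 ratio of 2.78 ± 0.79 (SE) with q 0.00805. At E13.5m the ratios of -0.49 ± 0.95 (SE) for H2-K1 and -0.37 ± 1.15 (SE) for H2-D1 were not called, and neither were those of -1.78 ± 0.80 and -0.90 ± 0.99 from E9.5 to E11.5 (authors' q 0.187 and 0.662).

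B2m encodes beta-2 microglobulin, the light chain that every class I molecule needs to reach the surface (chromosome 2, 121945844 to 122011925). It stood at 2.11 FPKM at E9.5, 1.42 at E11.5, 7.94 at E13.5f and 2.76 at E13.5m. Its order of groups was like that of H2-K1 at the top, with E13.5f highest, but its ratio of 2.48 ± 0.97 (SE) at E13.5f missed the authors' threshold with a q-value of 0.0729. In the deposited table the B2m interval spans 66082 bases and overlaps the rows of Patl2 and Trim69, and the H2-D1 interval spans 62316 bases and overlaps H2-Q1 and LOC547349. Reads of class I genes can also match several near-identical heavy chain genes, so the split between H2-K1, H2-D1 and the H2-Q genes is uncertain.

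In Tet1-KO both classical heavy chains fell. H2-K1 stood at 25.2 FPKM in WT and 3.08 in Tet1-KO, which is 8.19-fold lower. Its log2 ratio was -3.03 ± 0.66 (SE), and the authors' deposited table gives it an FDR of 0.000472. H2-D1 stood at 13.1 and 1.79 FPKM, 7.31-fold lower, and its log2 ratio was -2.87 ± 0.73 (SE, authors' FDR 0.0048). Both fell also relative to the median ratio of all genes, which was -0.38 in this comparison. B2m, at 8.62 and 2.36 FPKM, had a log2 ratio of -1.87 ± 0.91 (SE) and an FDR of 0.208. The Tet1-KO levels of H2-K1 and H2-D1 lay near those of E11.5 (2.77 and 1.83 FPKM in their own table), but the tables were scaled separately. If WT and E13.5f hold the same libraries, the rise at E13.5f and the fall in Tet1-KO share them and are not independent results.

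Of the list of 24 genes, class I heavy chains with B2m, 22 had a row in the stage tables. At E13.5f 18 of the 22 rows were higher than at E11.5, 1 was lower and 3 were equal, where 47.0% of all rows were higher. As reads can match several near-identical heavy chain genes, the rows are not independent, and their count is not shown to be a family-wide rise. Of 14 tested, 3 rose and 0 fell, against 9.34% of all tested genes that rose. The median change of the tested genes of the list was 0.91 in log2(FPKM + 1), against 0.22 over all tested genes. Only 14 of the 22 rows have a completed test, so this median does not cover the list, and with a pseudocount of 0.1 FPKM the list median was 2.43. The third call was H2-Q10, a secreted class I protein, which rose from 0.404 to 4.95 FPKM (log2 ratio 3.61 ± 1.08 SE, authors' q 0.0128). At E13.5m 14 rows were higher and 4 lower, where 40.9% of all rows were higher and 34.0% lower. There 0 of 11 were called, against 4.88% of all tested genes, and the median change was 0.29 against 0.05. Of the 22 rows, 9 reached 1 FPKM at E13.5f and 5 at E13.5m. In Tet1-KO 15 of 17 rows were lower, where 67.6% of all rows were lower, and 2 fell, H2-K1 and H2-D1, against 5.48% of all tested genes. There the median change was -0.78 against -0.21 (-1.79 for the list with a pseudocount of 0.1 FPKM), and 12 of the 17 rows lay below that median of all genes. In the same comparison 7 of 9 gonad soma markers were higher in Tet1-KO, with a median change of 0.58, and their part in the class I values was not tested. From E9.5 to E11.5 there was 1 call of 11, where 5.63% of all tested genes were called. This was H2-M3, which presents formylated peptides and fell from 7.36 to 0.142 FPKM (authors' q 0.00472). The fall of H2-M3 went together with the fall of the erythroid markers from 1887 to 25.4 FPKM, whose part in it was not tested.

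**Figure D3:**
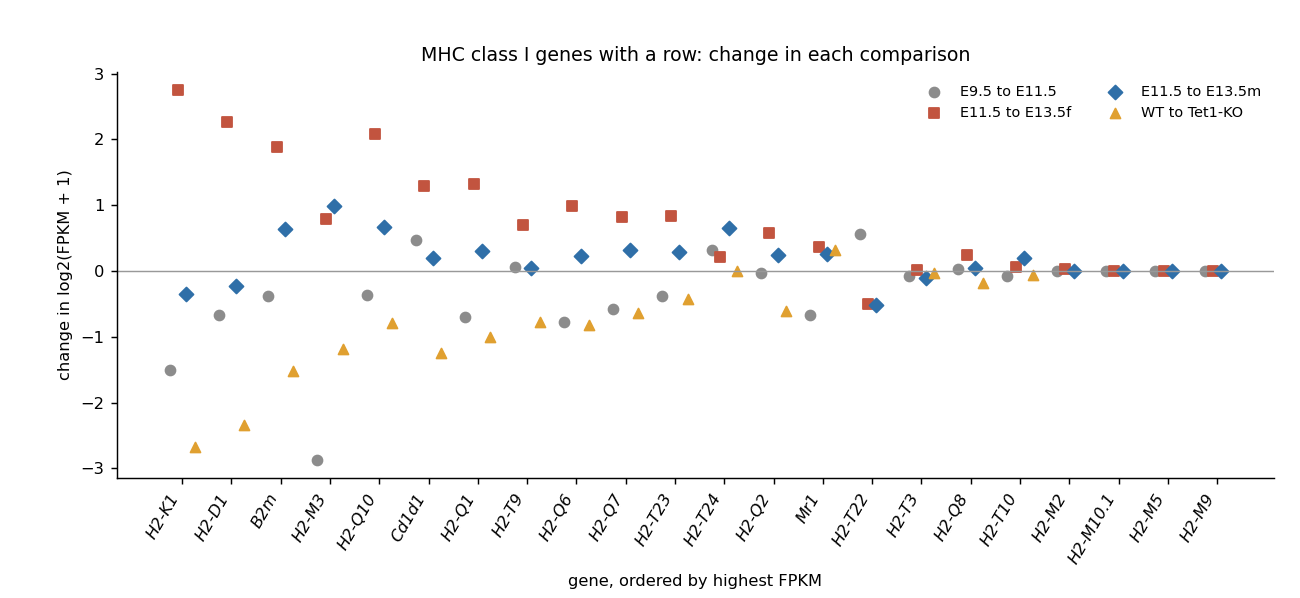
Change in log2(FPKM + 1) (vertical axis) of all 22 listed MHC class I genes with a row, ordered by their highest level, in the 4 comparisons; 17 of them have a row in the Tet1 table. From E11.5 to E13.5f 18 of the 22 points are above 0 and H2-T22 is below, and from WT to Tet1-KO 15 of 17 are below 0, with Mr1 and H2-T24 above. Near-identical genes can share reads, so the points are not independent.

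Genes that supply and load class I peptides had no call at E13.5f or in Tet1-KO, but the tests of Tapbp (47.01 FPKM at E11.5 and 16.99 at E13.5f) and Canx (73.05 and 50.84 FPKM) were not completed at E13.5f. Of 14 such genes none of the 9 tested at E13.5f was called, and their median change was -0.06 against 0.22 over all genes. Psme1, a proteasome activator subunit, stood at 152 to 267 FPKM over the stage groups, and the chaperones Calr and Pdia3 at 275 to 492 and 253 to 269 FPKM. Psme2, the partner of Psme1, stood at 7.74 to 9.77 FPKM and Tapbp, the loading protein tapasin, at 16.99 to 47.01 FPKM. Lower levels were listed for Tap1, a peptide transporter subunit (1.75 FPKM at E13.5f), and the immunoproteasome subunit Psmb9 (1.23 FPKM at E13.5f), and Nlrc5, the class I transactivator, was listed at 0 in 3 stage groups. Canx, the chaperone calnexin, fell from 74.8 to 32.4 FPKM between E11.5 and E13.5m (authors' q 0.0308), the 1 call of 11 there. Tapbpl, a peptide editor, fell from 2.46 to 0.135 FPKM between E9.5 and E11.5 (authors' q 0.0458), the 1 call of 12, and 0 of 11 were called in Tet1-KO. Over all tested genes 12.0% were called at E13.5f, 4.88% at E13.5m, 5.63% from E9.5 to E11.5 and 6.16% in Tet1-KO.

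The difference between the groups of day 13.5 was tested directly as the difference of the 2 log2 ratios to E11.5, a normal two-sided test with Benjamini-Hochberg adjustment over 10677 genes, of which 0.169% passed (0.122% with the higher level at E13.5m and 0.0468% at E13.5f). None of the 5 members tested passed. At an unadjusted p under 0.05 131 genes stood higher at E13.5m and 270 at E13.5f, H2-K1 and H2-D1 among the latter. H2-K1 was lower in E13.5m than in E13.5f by -3.62 ± 1.21 (SE) on the log2 scale, a 12.3-fold difference with an unadjusted p of 0.00266. It did not pass the adjustment (normal test across all genes, adjusted p 0.437). H2-D1 differed by -3.15 ± 1.39 (SE) and B2m by -1.52 ± 1.54 (SE), with an adjusted p of 1.0 for each. Irf1 differed by 0.63 and Isg15 by 2.18, with 95% intervals of -0.47 to 1.74 and -1.55 to 5.90. For H2-K1, H2-D1 and B2m the intervals were -5.99 to -1.26, -5.88 to -0.42 and -4.54 to 1.49. These intervals are not adjusted for the number of genes. After adjustment, calling H2-K1 and H2-D1 at E13.5f but not at E13.5m is not shown to be a difference between the 2 groups. The level of E11.5 cancels in this difference, but its error enters the SE with each ratio. The SEs, intervals and p-values of this test are therefore too large. In data simulated with these SEs the test found 11% of genes changed by 2 on the log2 scale and 77% of those changed by 4. The simulation drew the 2 ratios as independent, whereas the real ratios share E11.5. Those shares are therefore not the power of the test in these data. A gene that does not pass is not shown to be equal in the 2 groups.

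The 5 genes whose changes were most like those of Irgm1 were found by the root mean square difference of the 4 changes in log2(FPKM + 1), over 7893 genes with at least 5 FPKM in a group. As Irgm1 was chosen on 2 of these changes, the shared directions follow from the selection. The genes were Tmem63a (0.59), Lrrfip1 (0.68), Krt42 (0.71), Cyp11a1 (0.79) and 2610002J02Rik (0.79). Tmem63a, a membrane ion channel gene, stood at 5.41 FPKM at E11.5, 1.37 at E13.5f and 13.1 at E13.5m. Lrrfip1, which binds nucleic acids, stood at 23.5, 10.08 and 84.8 FPKM and was, with Irgm1, Eif2s3y and Lefty1, one of the 4 genes of 313 called in both comparisons that had opposite directions. Tmem63a lay just outside that rule, with q-values of 0.0322 at E13.5f and 0.158 at E13.5m in the authors' deposited tables. Cyp11a1, an enzyme of steroid hormone synthesis in gonadal soma, stood at 0.970, 0.0769 and 5.57 FPKM and reached the minimum of 5 FPKM at E13.5m alone, beside the gonad soma marker sums of 3.11, 7.49 and 27.8 FPKM in the same groups. The part of those cells in the Irgm1 level was not tested. Of the other members, Irf1 ranked 193rd in likeness to Irgm1, whereas B2m, H2-D1 and H2-K1 ranked 7541st, 7807th and 7860th. Isg15, Irgm2, Igtp and Ifit1 stayed below 5 FPKM in all groups and were not ranked. The ranks rest in part on the 2 changes that chose Irgm1.

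**Figure D4:**
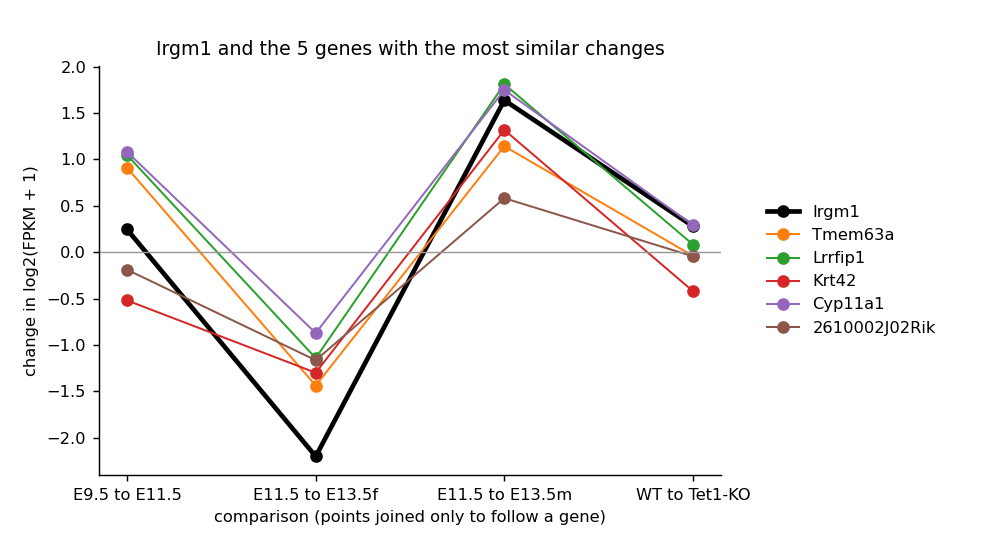
Change in log2(FPKM + 1) (vertical axis) of Irgm1 (thick black line) and the 5 genes with the smallest root mean square difference from it, in the 4 comparisons (horizontal axis). All 6 genes are below 0 from E11.5 to E13.5f and above 0 from E11.5 to E13.5m, which the choice by likeness to Irgm1 favours and which is a description only. Irgm1 has the lowest value of them at E13.5f (-2.20).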

How the data were processed

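Values were taken from 4 Cuffdiff tables. Per the submitters' processing notes, reads were handled with Bowtie, TopHat 1.3.1, Cufflinks and Cuffdiff (1.2.1 for the stages, 1.0.3 for Tet1-KO) on build mm9. The authors deposited 1 pooled FPKM value per group, per the file headers. They also deposited p-values, q-values for the stages and an FDR for Tet1-KO, of which 2182 exceed 1. The stage tables also hold a test statistic, a score deposited by the authors. Starts in the tables count from 0 and are printed from 1.

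Calls are the authors' at 0.05. The SE was obtained by dividing the log2 ratio by that statistic, and for Tet1-KO by the normal deviate that matches its p-value. Genes without a completed test or at 0 FPKM in a group have none. Neither have genes whose statistic or deviate is 0.05 or less in size, or whose p-value in Tet1-KO is 0. Genes without an SE are left out of the tests relative to the median and of the test between the groups of day 13.5. A change is a difference in log2(FPKM + 1), on which low genes appear to change less than they do. Relative to the median means after subtracting the median ratio, on the log2 scale, over genes that reach 1 FPKM in both groups, with new normal p-values and Benjamini-Hochberg adjustment. Alternatives were a threshold of 0.01, this centring, a filter at 1 FPKM, adjustment computed again and a pseudocount of 0.1. E9.5 and E13.5m levels were multiplied by 0.870 and 0.976, so that the E11.5 columns match the E13.5f table. Members, 9 pathway lists, 5 marker lists and tests were chosen with earlier results of these data known. Named genes were the members, up to 4 called genes per list and comparison, GTPases above 1 FPKM and the 5 genes most like Irgm1; uncalled genes beside them were named after their values were seen. Tests were tried on simulated data. Scripts ran in Python 3.11.15 with matplotlib 3.10.9, scipy 1.17.1, pandas 2.3.3 and numpy 2.4.6. Promoter sequences are RefSeq's (GRCm38.p6) and were not joined to mm9 coordinates. A gene of the lists is not reported here by name.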

Additional observations from a re-analysis of the deposited data

How the results depend on the processing

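No paired analysis was possible because the tables hold 1 pooled value per group, and for the same reason no library could be left out. Over the alternatives run, 109 values of single members kept their direction and call, 1 lost its call and 3 changed sign. Much of this tally was fixed in advance. The threshold, the filter and the adjustment computed again leave each ratio unchanged, so only the centring could change a sign. An uncalled member could not lose a call, and the tally includes the Irgm1 calls that chose it. At a threshold of 0.01 the Irgm1 call at E13.5m was lost (q 0.0288), and the counts of called genes fell to 348 (E9.5 to E11.5), 699 (E13.5f), 296 (E13.5m), 371 (Tet1-KO) and 11 (E13.5m against E13.5f, from 18), by construction. Relative to the median ratio, the uncalled ratios of Irgm1 from E9.5 to E11.5 (-0.039) and of Irf1 (0.29) and Isg15 (0.23) in Tet1-KO changed sign. There, 481 genes were called in Tet1-KO against 1010. The split of higher and lower calls went from 479 and 248 to 234 and 342 at E11.5, from 1163 and 333 to 817 and 487 at E13.5f, from 111 and 899 to 264 and 217 in Tet1-KO, and from 13 and 5 to 18 and 1 for E13.5m against E13.5f. With a pseudocount of 0.1 FPKM, 3 of the 5 genes most like Irgm1 were shared, and list medians at E13.5f grew in size with their sign kept, from -0.55 to -1.58 (GTPases), -0.56 to -0.99 (antiviral genes) and 0.91 to 2.43 (class I). Depth is unknown, so a listed 0 sets no upper limit.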

Other observations

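MHC class II genes, which belong to antigen-presenting cells, were low but not uniformly absent. H2-DMa, a class II peptide exchange subunit, stood at 0.493 FPKM at E9.5, 2.40 at E11.5, 5.95 at E13.5f and 3.34 at E13.5m. H2-Oa fell from 7.78 to 0.519 FPKM between E9.5 and E11.5 (authors' q 0.0403), the 1 call of 4 tested there, against 5.63% of all tested genes. At E13.5f 0 of 6, at E13.5m 0 of 5 and in Tet1-KO 0 of 7 were called. The shares of all tested genes there were 12.0%, 4.88% and 6.16%. All 6 tested at E13.5f were higher than at E11.5, with a median change of 0.90 in log2(FPKM + 1), against 0.22 over all tested genes. All 5 tested at E13.5m were higher too (median 0.35 against 0.05). In Tet1-KO 6 of 7 were lower and 1 was equal (median -0.63 against -0.21), where 67.6% of all rows were lower. Only 2 of the 11 rows reached 1 FPKM at E13.5f. The transactivator Ciita was listed at 0 in the stage tables, and Cd74, the invariant chain, was listed at 0 at E13.5f and stood at 1.74 FPKM at E13.5m.

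Sensors of foreign nucleic acid had no call in any comparison. Of 16 genes in that list, 8 were tested at E13.5f and 9 at E13.5m, where 12.0% and 4.88% of all tested genes were called. Ddx58, the RNA sensor RIG-I, stood at 6.52, 6.80, 12.5 and 15.6 FPKM at E9.5, E11.5, E13.5f and E13.5m. Zbp1, a sensor of Z-form nucleic acid, had the same order at day 13.5 as Irgm1, at 0.0693 FPKM at E13.5f and 2.36 at E13.5m.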
